A study of Mus musculus with 6 samples.

Results

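The collagen genes were taken as every gene in the count tables whose symbol is Col, a type number, the letter a and a chain number, with at least 60 counts over the 6 libraries. All 44 symbols of this form among the 44556 genes listed met the minimum. The members with the fewest counts were Col4a3, with 61, and Col6a4, with 69, and no symbol of this form fell below it. They were grouped by the structure their chains form: 11 fibrillar, 9 network, 9 FACIT (fibril-associated collagens with interrupted triple helices), 4 transmembrane, 6 beaded filament (type VI), 1 anchoring fibril (type VII), 2 multiplexin (types XV and XVIII) and 2 other genes (types XXVI and XXVIII).

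Each library came from the parietal bone, part of the skull vault, of newborn C57BL/6 mice, which the study describes as littermates. The control group held 3 OsxCre libraries, and the other held 3 libraries labelled OsxCre;Stat3fl/fl, so that both carried the Osx-driven Cre and differed in the floxed Stat3 alleles. Osx-Cre is active mainly in osteoblast precursors, while the RNA came from whole tissue in which markers of muscle, vessels, cartilage and marrow were also counted, so that fewer cells of a type and less RNA per cell cannot be told apart in any value given here. The question was how gene expression in newborn bone changes when Stat3, a transcription factor that relays cytokine signals, is deleted in these cells.

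Collagens are trimers of alpha chains whose glycine-rich repeats wind into a triple helix. Fibrillar collagens assemble into the banded fibrils of bone, tendon, skin and cartilage. Type I, made of the products of Col1a1 and Col1a2, is the main protein of bone matrix, type II is that of cartilage, and types V and XI set the diameter of the fibrils they join. FACIT chains sit on fibril surfaces, type IV forms the sheets of basement membranes, type VI makes fine filaments around cells, and transmembrane collagens such as type XIII stay anchored in the cell surface at adhesion sites.

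Counts on genes summed to between 8193651 and 12080044 per library, and each library labelled OsxCre;Stat3fl/fl was smaller than each OsxCre library. Levels are therefore given as CPM, counts per 1000000 counts of a library whose size was scaled by TMM (edgeR's trimmed mean of M-values). Stat3 itself, on chromosome 11, was not lower in the libraries labelled OsxCre;Stat3fl/fl, at 153, 155 and 155 CPM against 149.9, 135 and 141 CPM in OsxCre, and the genotypes are taken from the labels. Xist, expressed from an inactive X chromosome, had 881 to 1059 CPM in all 6 libraries, while Ddx3y and Kdm5d, on the Y chromosome, were at 0 throughout, whereas the study describes the newborns as male. Summed skeletal muscle markers, of which 17 of 20 were higher and 11 had an unadjusted p under 0.05 in that direction, had 42108 to 47196 CPM in OsxCre and 48737 to 71959.7 CPM in the libraries labelled OsxCre;Stat3fl/fl. The list did not move one way, since Myh4, an adult fast myosin, had 419.6, 411 and 478 CPM in OsxCre and 30.6, 39.1 and 37.3 CPM in the other group (log2 fold change -3.61, adjusted p = 3.9e-05 from edgeR). Myh3, the only other muscle marker at an adjusted p under 0.05, was higher (log2 fold change 1.71, adjusted p = 0.0204 from edgeR). The 10 erythroid and marrow markers had 3005 to 4919 and 1660.2 to 2853 CPM, and the 5 markers shared with hypertrophic chondrocytes had 382 to 416 and 314 to 359.8 CPM. Those 5 did not move one way. Panx3, Ppa1 and Pth1r had log2 fold changes of -0.32, -0.33 and -0.33, and Ihh and Mef2c of 0.30 and 0.29. The summed level of the 13 osteoblast markers overlapped and was made up largely of Sparc and Spp1, while 10 of the 13 genes were lower, 4 of them and none of the higher ones at an unadjusted p under 0.05. Beside these counts and that of muscle, 8.34% of all genes tested were lower and 8.03% higher at that threshold. The summed levels of the lists for chondrocytes, endothelium, mural cells, nerve, tenocytes and fibroblasts, meninges, adipocytes and osteoclasts overlapped between genotypes. Osteoblast markers were present in every library, with Ibsp, a bone matrix sialoprotein, at 1017, 1060.4 and 932 CPM in OsxCre and 610.3, 663 and 627 CPM in the other group (adjusted p = 0.0213 from edgeR). The part of these cell types in the collagen results was not tested.

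The promoters of the members lower at an unadjusted p under 0.05 are shown first. Of the 5 members lower at an unadjusted p under 0.05, 4 have an entry among the RefSeq promoters of GRCm38.p6, each running from 250 bases before the start annotated for that entry to 50 bases after it, and Col22a1 has none. For Col13a1 and Col16a1 this start differs from the first base of the gene, which lies at chr10:61979206 and chr4:130047817. Positions of matches are counted from the start of the entry. Col13a1 (chr10:61979059-61979358, minus strand) encodes the chain of transmembrane collagen XIII, and Col24a1 (chr3:145292222-145292521, plus strand) a fibrillar chain found in bone. Col16a1 (chr4:130047590-130047889, plus strand) encodes a FACIT chain, and Col8a2 (chr4:126286544-126286843, plus strand) a short chain of network-forming collagen VIII. Each sequence is written in the direction of the gene, and capitals mark matches on either strand to 5 short motifs. These are the TATA box, searched as TATAAA, and the GC box, searched as GGGCGG. The others are the CCAAT box, the RUNX motif, searched as TGTGGT, and the STAT motif, searched as TTCNNNGAA.
Col13a1: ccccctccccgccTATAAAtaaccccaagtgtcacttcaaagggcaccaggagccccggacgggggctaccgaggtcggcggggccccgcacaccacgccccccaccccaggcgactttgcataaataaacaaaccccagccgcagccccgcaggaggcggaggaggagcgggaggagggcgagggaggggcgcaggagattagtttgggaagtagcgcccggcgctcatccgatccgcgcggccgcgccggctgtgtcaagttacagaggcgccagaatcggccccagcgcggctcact
Col24a1: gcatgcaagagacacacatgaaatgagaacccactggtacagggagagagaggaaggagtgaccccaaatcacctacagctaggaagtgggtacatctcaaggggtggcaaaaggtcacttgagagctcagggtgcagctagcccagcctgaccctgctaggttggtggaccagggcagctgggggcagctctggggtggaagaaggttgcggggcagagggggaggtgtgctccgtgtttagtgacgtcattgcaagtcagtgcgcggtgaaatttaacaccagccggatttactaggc
Col16a1: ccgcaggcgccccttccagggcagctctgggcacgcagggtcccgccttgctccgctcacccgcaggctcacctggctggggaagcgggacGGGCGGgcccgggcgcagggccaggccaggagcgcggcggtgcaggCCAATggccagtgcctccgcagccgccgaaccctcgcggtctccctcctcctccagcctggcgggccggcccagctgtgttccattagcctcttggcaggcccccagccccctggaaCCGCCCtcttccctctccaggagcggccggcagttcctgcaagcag
Col8a2: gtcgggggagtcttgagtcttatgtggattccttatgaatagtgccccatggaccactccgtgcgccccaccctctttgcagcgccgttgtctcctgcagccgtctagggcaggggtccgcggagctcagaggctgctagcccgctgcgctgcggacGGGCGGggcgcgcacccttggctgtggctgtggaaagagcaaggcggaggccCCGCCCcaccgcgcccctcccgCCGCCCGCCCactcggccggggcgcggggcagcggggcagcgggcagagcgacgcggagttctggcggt

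Col13a1 held 1 match, TATAAA with its first base at -237 from the start, and Col24a1 held none. Col8a2 held 4 GC boxes, at -93, -41, -19 and -15, the last 2 of which overlap. Col16a1 held a GC box at -159, CCAAT at -113 and a GC box at 5. Of the members higher at an unadjusted p under 0.05, the windows of Col4a4 and Col17a1 are not printed. That of Col4a4 held no match, and that of Col17a1 held TATAAA at -140 and -91, the RUNX motif at -84 and CCAAT at -31. Entries were found for 35 of the 44 members, with 38 windows in all. GC boxes stood in 23 of these 38 windows, or 60.53%, against 35.66% of all 32851 windows of the table. The STAT motif stood in 2 of the 38, those of Col28a1 and Col6a5, or 5.26%, against 8.3% of all windows, and the RUNX motif in 3 of the 38, or 7.89%, against 16.76%. TATAAA stood in 13.16% of collagen windows and 13.62% of all, and CCAAT in 34.21% and 37.41%. A match is a run of letters in a short window and no measured binding.

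The collagen genes together took 5.63, 4.62 and 4.88 percent of all counts in the OsxCre libraries and 4.49, 4.97 and 5.16 percent in the libraries labelled OsxCre;Stat3fl/fl. The ranges overlapped, with OsxCre library 1 highest and OsxCre;Stat3fl/fl library 1 lowest. The difference of the means was -0.17 percentage points, and it turned to 0.12 without OsxCre library 1 and to 0.020 without OsxCre;Stat3fl/fl library 1. The 11 fibrillar genes held most of these counts, 3.55 to 4.65 percent of a library, and the 4 transmembrane genes between 0.0101 and 0.0136 percent. Col1a1, Col1a2 and Col3a1 alone made up 70.3, 66.9 and 67.4 percent of collagen counts in OsxCre and 61.5, 65.8 and 65.5 percent in the other group, which did not overlap. The share of Col3a1 went the opposite way without overlap, with 14.95, 15.3 and 13.2 percent of collagen counts in OsxCre and 15.6, 17.3 and 15.5 percent in the other group. That of Col1a1 overlapped, at 27.3, 24.5 and 26.5 against 22.4, 24.2 and 24.7 percent, while Col1a2 held 28.1, 27.03 and 27.6 percent of collagen counts in OsxCre and 23.5, 24.4 and 25.2 percent in the libraries labelled OsxCre;Stat3fl/fl. With these 3 genes left out, the other 41 took 1.67, 1.53 and 1.59 percent of all counts in OsxCre and 1.73, 1.697 and 1.78 percent in the libraries labelled OsxCre;Stat3fl/fl, so that the direction turned and the groups lay apart. These shares are sums over the members and were given no test.

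**Figure D1:**
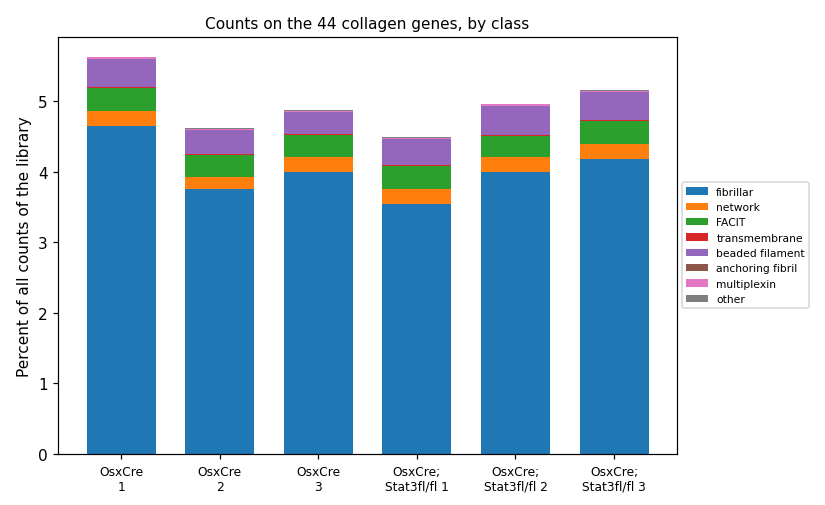
Percent of all counts of each library that fell on the 44 collagen genes, stacked by structural class, for 3 OsxCre and 3 OsxCre;Stat3fl/fl libraries. Fibrillar genes fill most of each bar, and the total runs from 4.49 to 5.63 percent with overlap between the genotypes.

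Levels of different genes were compared per kilobase of the transcript with the longest coding stretch in GENCODE for mm9. In OsxCre, Col1a2 and Col1a1 led with 2570.2 ± 336 and 2202 ± 359 CPM per kilobase (SD, n = 3), a gap about the size of their SDs. Col3a1, the chain of the type III homotrimer of soft connective tissue, followed with 1297 ± 172 CPM per kilobase. Col6a1 with 343 ± 36.7 and the cartilage gene Col2a1 with 333 ± 103 came next and did not differ beyond the SD of Col2a1. Col6a2 with 271 ± 35.6, Col5a2 with 233 ± 29.3 and Col5a1 with 211 ± 28.8 CPM per kilobase followed, of which the type V genes lay within their SDs of each other. Among transmembrane genes, Col13a1 with 12.5 ± 1.47 and Col23a1 with 12.2 ± 0.8396 stood level in OsxCre, above Col25a1 with 5.36 ± 0.572 and Col17a1 with 1.06 ± 0.221 CPM per kilobase. The lowest were Col4a3, Col6a4 and Col4a4, with 0.0806, 0.161 and 0.194 CPM per kilobase.

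Each gene was tested for a difference between the groups by edgeR's quasi-likelihood F test, fitted to the 15600 genes with enough counts and adjusted over all of them by the Benjamini-Hochberg method. The study's methods give 3 mice of each genotype, while the labels do not name the animal of each library. The p-values measure the spread between these samples only. Of the 44 collagen genes 42 entered the test, and Col4a3 and Col6a4 did not. Col13a1 alone passed an adjusted p under 0.05 and was lower, or 1 of 42, where 0.481% of all genes tested were called lower. No collagen gene was called higher at that threshold by edgeR, DESeq2 or limma-voom, where edgeR called 0.776% of all genes higher. At an unadjusted p under 0.05, 5 of the 42 were lower, or 11.9%, against 8.34% of all genes, and 3 were higher, or 7.14%, against 8.03%. The values of one genotype lay wholly below the other for 6 members, or 14.3%, against 12.2% of all genes, and wholly above for 1, or 2.38%, against 10.8%. At the unadjusted threshold of this edgeR fit the shares lay close to those of all genes, and fewer members lay wholly above than the background share.

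With TMM scaling, 27 of the 42 log2 fold changes were positive and their median was 0.10, against -0.00 for all 15600 genes, while without scaling for library size 4 were positive and the medians were -0.27 and -0.38. The collagen median lay 0.11 above that of all genes in both settings, but 0.061 above it without OsxCre library 2 and 0.159 above it without OsxCre library 1. By class, the median log2 fold change was 0.10 for fibrillar, 0.12 for network, 0.22 for FACIT, -0.02 for transmembrane and 0.22 for beaded filament genes with TMM scaling, and all 5 medians were negative without scaling. With 1 library left out they ran from 0.026 to 0.14 for fibrillar, -0.07 to 0.29 for network, 0.11 to 0.28 for FACIT, -0.06 to 0.059 for transmembrane and 0.17 to 0.26 for beaded filament genes. The network median turned negative without OsxCre library 2 and was 0.0081 without OsxCre;Stat3fl/fl library 3, and the fibrillar median was lowest without OsxCre;Stat3fl/fl library 2. The transmembrane median turned positive without OsxCre;Stat3fl/fl library 3, at 0.059, and without OsxCre library 3, at 0.0029. All 5 beaded filament genes tested had positive values with TMM and with library totals, and all 5 had negative values without scaling. FACIT genes ranged from -0.44 for Col22a1 to 0.47 for Col14a1, and transmembrane genes from -0.76 for Col13a1 to 0.56 for Col17a1. Neither the FACIT nor the transmembrane genes shared a direction.

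**Figure D2:**
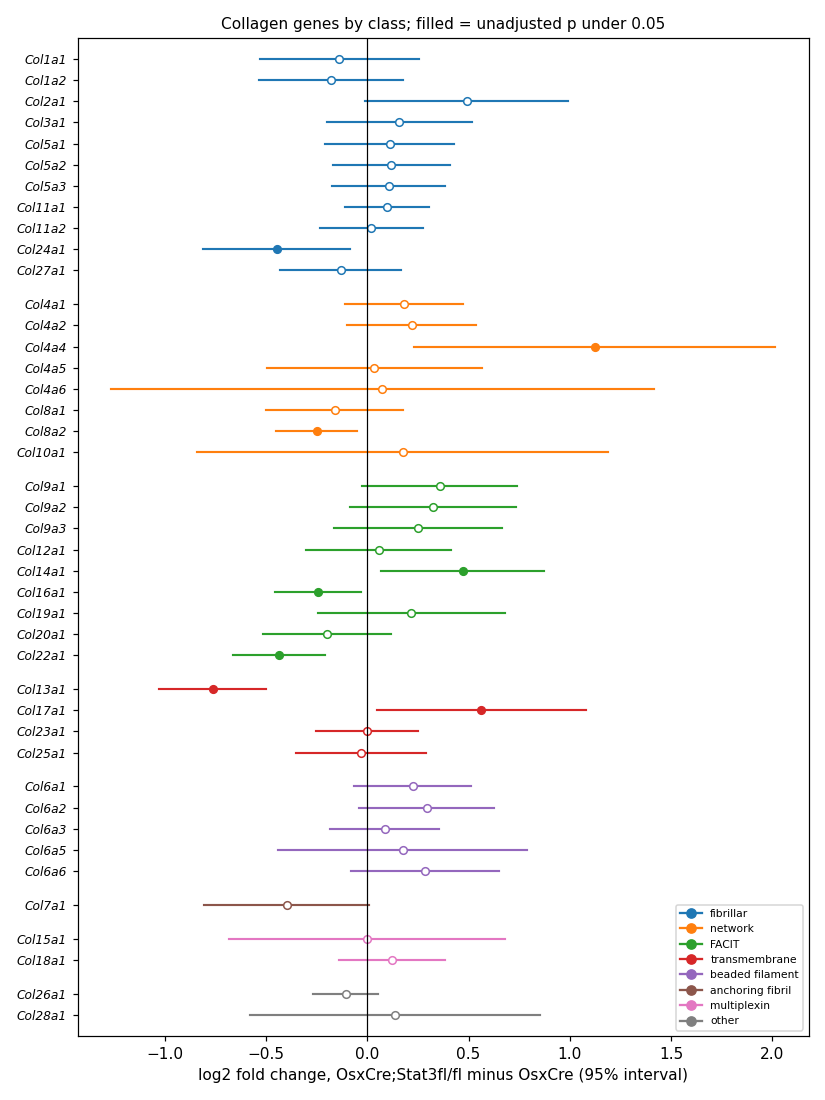
Log2 fold change of libraries labelled OsxCre;Stat3fl/fl against OsxCre for the 42 collagen genes tested, by structural class, with 95% intervals from edgeR's quasi-likelihood fit. Filled points mark the 8 genes with an unadjusted p under 0.05, from -0.76 for Col13a1 to 1.12 for Col4a4, and the other intervals include 0.

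Among the fibrillar genes, type I collagen showed no difference beyond the spread of the libraries. Col1a1 (chr11:94936224-94953042, GRCm38.p6), which lies 5.93 Mb from Stat3 on chromosome 11, had 15152, 10892 and 13121 CPM in OsxCre and 9902, 12909 and 12765 CPM in the libraries labelled OsxCre;Stat3fl/fl. Its partner Col1a2 had 15587, 12001 and 13640.2 and 10395, 13016 and 13026 CPM. In both genes OsxCre library 1 was highest and OsxCre;Stat3fl/fl library 1 lowest, and the other 4 libraries lay between them, so the genotypes overlapped. The log2 fold change was -0.14 for Col1a1 (95% interval -0.53 to 0.25, adjusted p = 0.7498 from edgeR) and -0.18 for Col1a2 (95% interval -0.53 to 0.18, adjusted p = 0.621 from edgeR). Both intervals lie on either side of 0.

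Type III collagen, from Col3a1, had 8308, 6815 and 6532 CPM in OsxCre and 6892, 9242 and 8013 CPM in the libraries labelled OsxCre;Stat3fl/fl, a log2 fold change of 0.16 (adjusted p = 0.672 from edgeR). Col5a1 and Col5a2, whose chains start type I fibrils, had 2046, 1677 and 1589.7 and 1767, 1431 and 1430.5 CPM in OsxCre. In the other group they had 1699, 2143 and 1888 and 1511, 1805 and 1705 CPM, and Col5a3 had 268, 239 and 214 against 230.1, 295 and 249.9 CPM. All 3 type V genes followed one order of libraries in the group labelled OsxCre;Stat3fl/fl, with library 2 highest and library 1 lowest, and their ranges overlapped those of OsxCre. Their log2 fold changes were 0.11, 0.12 and 0.11, with adjusted p-values from edgeR of 0.756, 0.703 and 0.729.

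Among the fibrillar genes with low levels, Col24a1 passed the unadjusted threshold and Col27a1 did not. Col24a1 had 19.9, 15.3 and 18.9 CPM in OsxCre and 14.5, 13.9 and 11.2 CPM in the libraries labelled OsxCre;Stat3fl/fl, and all 3 of the latter were lower than any OsxCre library. The difference was -0.45 on the log2 scale (95% interval -0.81 to -0.09, adjusted p = 0.2099 from edgeR), which did not pass the adjusted threshold. Col27a1, another short-helix fibrillar gene, overlapped between genotypes, with 33.9 to 46.6 CPM and a log2 fold change of -0.13.

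Cartilage collagens had higher means in the libraries labelled OsxCre;Stat3fl/fl with TMM scaling, but none passed the unadjusted threshold, and without scaling the log2 fold changes of the type IX genes were negative. Col2a1, which encodes the chain of cartilage fibrils, had 1292, 1515 and 2293 CPM in OsxCre and 2677, 2029 and 2458 CPM in the other group. OsxCre library 3 stood above OsxCre;Stat3fl/fl library 2, so the groups overlapped, and the log2 fold change was 0.49 (95% interval -0.01 to 0.99, adjusted p = 0.317 from edgeR). The type IX genes, whose FACIT chains coat type II fibrils, overlapped in the same way. Col9a1 had 195, 244 and 301 against 301, 285 and 363 CPM, Col9a2 331, 381 and 488 against 599, 415 and 491 CPM and Col9a3 298, 377 and 402 against 532, 338 and 409 CPM. Their log2 fold changes were 0.36, 0.33 and 0.25, with adjusted p-values from edgeR of 0.335, 0.4097 and 0.543.

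Type XI chains, which form the core of cartilage fibrils and also occur in bone, overlapped as well. Col11a1 had 471, 457 and 515 CPM in OsxCre and 483, 518 and 544 CPM in the other group, and Col11a2 had 971, 971 and 1098 and 1102, 912 and 1068 CPM. Their log2 fold changes were 0.10 and 0.02. Col10a1, a network gene of hypertrophic chondrocytes, had 35.5, 39.4 and 114 CPM in OsxCre and 84.8, 50.1 and 79.3 CPM in the libraries labelled OsxCre;Stat3fl/fl, with OsxCre library 3 far above the other OsxCre libraries. Its log2 fold change was 0.17 (95% interval -0.84 to 1.19, adjusted p = 0.893 from edgeR) and 0.93 without OsxCre library 3, at an adjusted p of 0.143 from edgeR. Without OsxCre library 1 it turned to -0.11.

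Markers of cartilage other than collagens varied across the libraries beside these genes. Acan, the core protein of cartilage proteoglycan, had 193, 209 and 253 CPM in OsxCre and 297, 267 and 252 CPM in the libraries labelled OsxCre;Stat3fl/fl, and Matn1, a cartilage matrix protein, had 95.1, 105 and 207 and 191, 151 and 151 CPM. The 15 chondrocyte markers together had 752 to 1049.8 CPM in OsxCre and 888 to 1079 CPM in the libraries labelled OsxCre;Stat3fl/fl, and of the 14 tested 9 had positive and 5 negative log2 fold changes, 2 of the former and none of the latter at an unadjusted p under 0.05. Over all genes tested, 8.03% were higher and 8.34% lower at that threshold. How far the amount of cartilage in each dissected bone set the cartilage collagens was not tested.

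**Figure D3:**
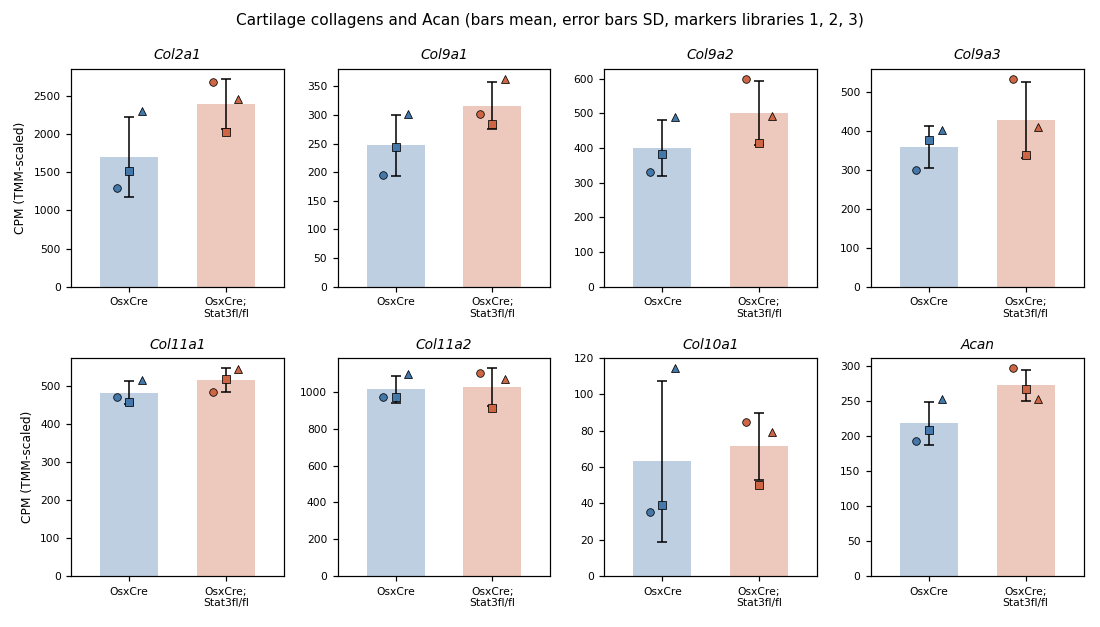
CPM (TMM-scaled) of the cartilage collagen genes and of Acan in each library, with bars at the mean of 3 libraries, error bars of 1 SD and circles, squares and triangles for libraries 1, 2 and 3. The groups overlap in each panel, and OsxCre library 3 stands far above the other OsxCre libraries for Col10a1.

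The collagen gene with the adjusted call encodes a transmembrane collagen. Col13a1 (chr10:61838234-61979206, GRCm38.p6), whose product spans the membrane at cell-matrix junctions, had 427, 324 and 448 counts in OsxCre and 192, 173 and 177 counts in the libraries labelled OsxCre;Stat3fl/fl. Scaled, these were 40.6, 32.1 and 37.6 CPM and 23.1, 21.2 and 20.7 CPM, or 36.8 ± 4.31 and 21.7 ± 1.24 CPM (SD, n = 3). Every library labelled OsxCre;Stat3fl/fl lay below every OsxCre library, and the smallest gap between the groups was wider than the spread within either. The gene fell 1.699-fold, or -0.76 on the log2 scale (95% interval -1.03 to -0.50, adjusted p = 0.0271 from edgeR). The adjusted p was under 0.05 in 1 of the 6 fits that left out a library and between 0.033 and 0.136 over them, and the unadjusted p was under 0.05 in all 6.

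The only other transmembrane gene at an unadjusted p under 0.05 went the opposite way. Col17a1, a hemidesmosome collagen of skin keratinocytes, had 5.805, 7.24 and 4.78 CPM in OsxCre and 9.85, 9.44 and 7.02 CPM in the libraries labelled OsxCre;Stat3fl/fl, a log2 fold change of 0.56 (adjusted p = 0.269 from edgeR). OsxCre library 2 stood above OsxCre;Stat3fl/fl library 3, so the groups overlapped. The 10 keratinocyte markers, of which 4 were tested, summed to 14.2 to 21.03 CPM in OsxCre and 21.5 to 29.7 CPM in the other group. Of the 4 tested, Dsp and Itgb4 were higher at an unadjusted p under 0.05, and Krt10 and Lor had log2 fold changes of -0.40 and -0.42. The defining keratin Krt5 had 0, 0.793 and 0.0839 CPM in OsxCre and 2.88, 0.245 and 2.46 CPM in the libraries labelled OsxCre;Stat3fl/fl, where 3 counts of a library come to between 0.248 and 0.366 CPM. The part of skin in the value of Col17a1 was not tested. Col23a1 and Col25a1 had log2 fold changes of -0.00 and -0.03, with 95% intervals of -0.25 to 0.25 and -0.35 to 0.29.

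**Figure D4:**
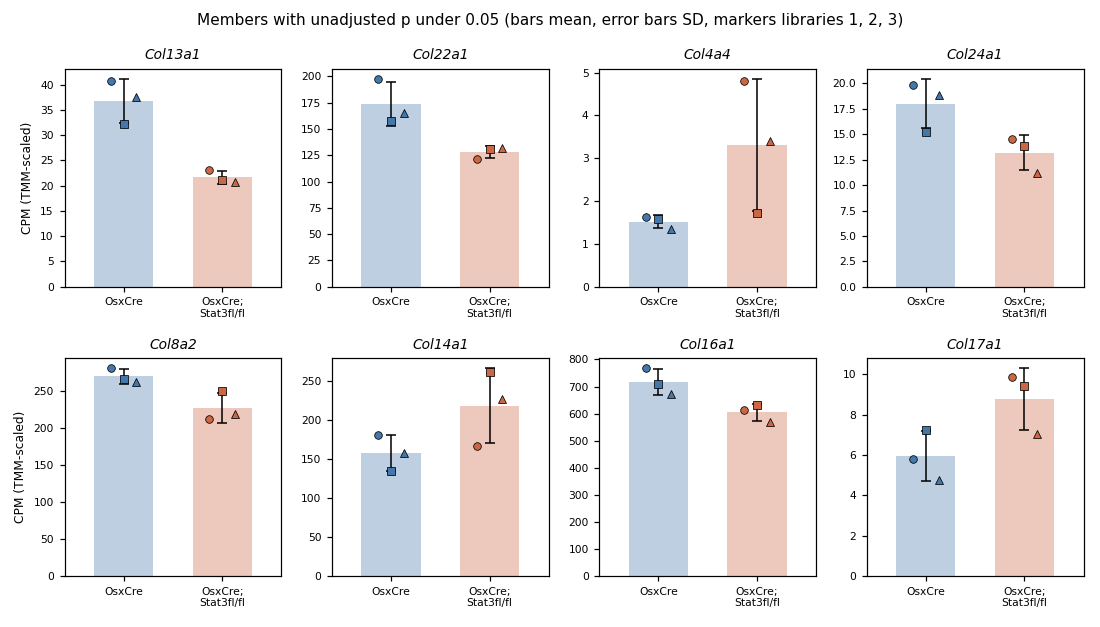
CPM (TMM-scaled) of the 8 collagen genes with an unadjusted p under 0.05 in each library, ordered by p, with bars at the mean of 3 libraries, error bars of 1 SD and circles, squares and triangles for libraries 1, 2 and 3. Col13a1, Col22a1, Col24a1, Col8a2 and Col16a1 are lower without overlap in the libraries labelled OsxCre;Stat3fl/fl. Col4a4 is higher without overlap, but narrowly, at 1.72 CPM in OsxCre;Stat3fl/fl library 2 against 1.62 CPM in OsxCre library 1. Col14a1 and Col17a1 overlap.

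FACIT genes outside cartilage divided into lower and higher members. Col22a1, known from muscle-tendon junctions, had 198, 158 and 165 CPM in OsxCre and 121, 131 and 132 CPM in the libraries labelled OsxCre;Stat3fl/fl, all 3 below any OsxCre library. The difference was -0.44 on the log2 scale (95% interval -0.67 to -0.21, adjusted p = 0.08504 from edgeR), and DESeq2 gave an adjusted p of 0.00997. Summed skeletal muscle markers were higher in the same libraries, though not every marker moved that way, as given above. How far muscle set the value of Col22a1 was not tested. Col16a1 had 767, 709 and 671 CPM and 613, 631 and 570.5 CPM, also without overlap, at a log2 fold change of -0.24 (adjusted p = 0.244 from edgeR). Col14a1, a chain of tendon and dermal fibrils, had 181, 134 and 157 CPM in OsxCre and 166, 261 and 227 CPM in the other group. The first library of the latter lay within the OsxCre range, and the log2 fold change was 0.47 (adjusted p = 0.236 from edgeR).

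Col12a1, the most counted FACIT gene, which coats type I fibrils of periosteum and tendon, had 1218, 895 and 922 CPM in OsxCre and 902, 1194 and 1058 CPM in the libraries labelled OsxCre;Stat3fl/fl, a log2 fold change of 0.06. Col19a1 and Col20a1 had low levels, from 4.76 to 26.2 CPM between them, and log2 fold changes of 0.22 and -0.20 with adjusted p-values from edgeR of 0.647 and 0.517. Both overlapped between genotypes.

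Basement membrane collagens come in pairs of neighbouring genes on opposite strands. Col4a1 and Col4a2, the chains found in nearly all basement membranes, overlap by 85 bp on chromosome 8 in RefSeq, Col4a3 and Col4a4 by 114 bp on chromosome 1, and Col4a5 and Col4a6 lie 1274 bp apart on the X chromosome. The kit named in the labels does not mark strand, so reads from the shared bases cannot be assigned to either gene of a pair. Col4a1 had 629.9, 531 and 722 CPM in OsxCre and 699.5, 764 and 671 CPM in the other group, and Col4a2 had 890.05, 713 and 943 and 858, 1074 and 1031 CPM. Both overlapped, with log2 fold changes of 0.18 and 0.22 and adjusted p-values from edgeR of 0.529 and 0.481.

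The other type IV genes, known from kidney, eye and skin, had fewer reads, and Col4a3 and Col4a4 had the fewest. Col4a4 had 17, 16 and 16 counts in OsxCre and 40, 14 and 29 counts in the libraries labelled OsxCre;Stat3fl/fl, or 1.62, 1.59 and 1.34 against 4.804, 1.72 and 3.39 CPM. The groups did not overlap, but OsxCre;Stat3fl/fl library 2 stood just above the OsxCre libraries, and the log2 fold change of 1.12 had a standard error of 0.39 (adjusted p = 0.205 from edgeR). Its neighbour Col4a3, too low for the test, had 9, 8 and 5 counts in OsxCre and 22, 2 and 15 in the other group, with the same library lowest. Col4a6 likewise had 10.1, 2.57 and 8.42 CPM in the libraries labelled OsxCre;Stat3fl/fl, with library 2 lowest, but 11.99, 4.76 and 3.36 CPM in OsxCre, so the groups overlapped widely. Col4a5 had 37.2, 19.1 and 25.7 and 26.5, 25.1 and 32.3 CPM, a log2 fold change of 0.03.

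Of the type VIII network genes, found in vessel walls and corneal endothelium, Col8a2 was lower without overlap. It had 280.2, 266 and 262 CPM in OsxCre and 211, 249 and 218 CPM in the libraries labelled OsxCre;Stat3fl/fl, which gave -0.25 on the log2 scale (95% interval -0.45 to -0.05, adjusted p = 0.2099 from edgeR). Col8a1 overlapped, with 141, 116 and 140.4 and 93.3, 128 and 133 CPM and a log2 fold change of -0.16.

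Type VI chains, which link cells to the interstitial matrix, had slightly higher means with TMM scaling, lower ones without it, and no call. Col6a1 had 1574, 1359.7 and 1283 CPM in OsxCre and 1467, 1827 and 1629.9 CPM in the libraries labelled OsxCre;Stat3fl/fl, and Col6a2 had 1233, 1003 and 978 and 1131, 1522 and 1282 CPM. Library 2 was highest in the group labelled OsxCre;Stat3fl/fl for both. Col6a3 had 1035, 881 and 808 and 902, 1021 and 965 CPM. The adjusted p-values from edgeR were 0.423, 0.361 and 0.7798, and log2 fold changes ran from 0.08 for Col6a3 to 0.29 for Col6a2. Col6a6 had a log2 fold change of 0.28 and Col6a5, with 2.08 to 3.51 CPM, of 0.17. Col6a4 had 11, 19 and 8 counts in OsxCre and 14, 8 and 9 in the other group and was not tested.

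The remaining classes gave small or uncertain differences. Col7a1, the anchoring fibril chain of skin, had 15.9, 16.6 and 13.5 CPM in OsxCre and 11.05, 14.2 and 9.59 CPM in the libraries labelled OsxCre;Stat3fl/fl, with 1 library of the latter inside the OsxCre range and a log2 fold change of -0.40 (adjusted p = 0.315 from edgeR). Col18a1, the multiplexin whose C-terminus yields endostatin, had 233, 172 and 210.4 and 214, 227 and 229 CPM, and Col15a1 stayed at 1.39 to 2.602 CPM. Col26a1 had 114, 115 and 113 CPM in OsxCre and 112, 106 and 100.1 CPM in the other group, without overlap but with a log2 fold change of only -0.11 (adjusted p = 0.498 from edgeR). Col28a1 ranged from 4.29 to 9.61 CPM with full overlap.

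Ratios of chains within a library do not depend on scaling, and 10 were compared by an exact permutation test of the log2 ratio, two-sided, whose smallest p with 3 libraries against 3 is 0.1. The ratio of Col1a1 to Col1a2 counts was 0.972, 0.908 and 0.962 in OsxCre and 0.953, 0.992 and 0.97998 in the libraries labelled OsxCre;Stat3fl/fl, a difference within the spread of the libraries (exact p = 0.4). The ratio of Col3a1 to Col1a1 was 0.548, 0.626 and 0.498 in OsxCre and 0.696, 0.716 and 0.628 in the other group, higher in 3 of 3 libraries without overlap, at a log2 difference of 0.29. Col12a1 to Col1a1 was also higher without overlap, at 0.0911, 0.0925 and 0.0828 against 0.0804, 0.0821 and 0.0703. Col6a3 to Col6a1 was lower without overlap, at 0.615, 0.559 and 0.592 against 0.658, 0.648 and 0.6295. Each of these 3 ratios had an exact p of 0.1, the smallest possible, and an adjusted p of 0.333 over the 10 ratios, so none passed. Col5a1 to Col1a1 had a mean of 0.137 ± 0.0165 in OsxCre and 0.162 ± 0.0124 (SD, n = 3) in the other group, with overlap (exact p = 0.2).

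Among the cartilage ratios, Col11a1 to Col2a1 was 0.365, 0.302 and 0.225 in OsxCre and 0.1804, 0.255 and 0.222 in the libraries labelled OsxCre;Stat3fl/fl (exact p = 0.2), and Col9a1 to Col2a1 had an exact p of 0.4. The other pairs of one collagen type, Col5a2 to Col5a1, Col4a2 to Col4a1 and Col6a2 to Col6a1, overlapped, with exact p-values of 0.9, 0.9 and 0.2 and log2 differences of 0.01, 0.03 and 0.07.

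**Figure D5:**
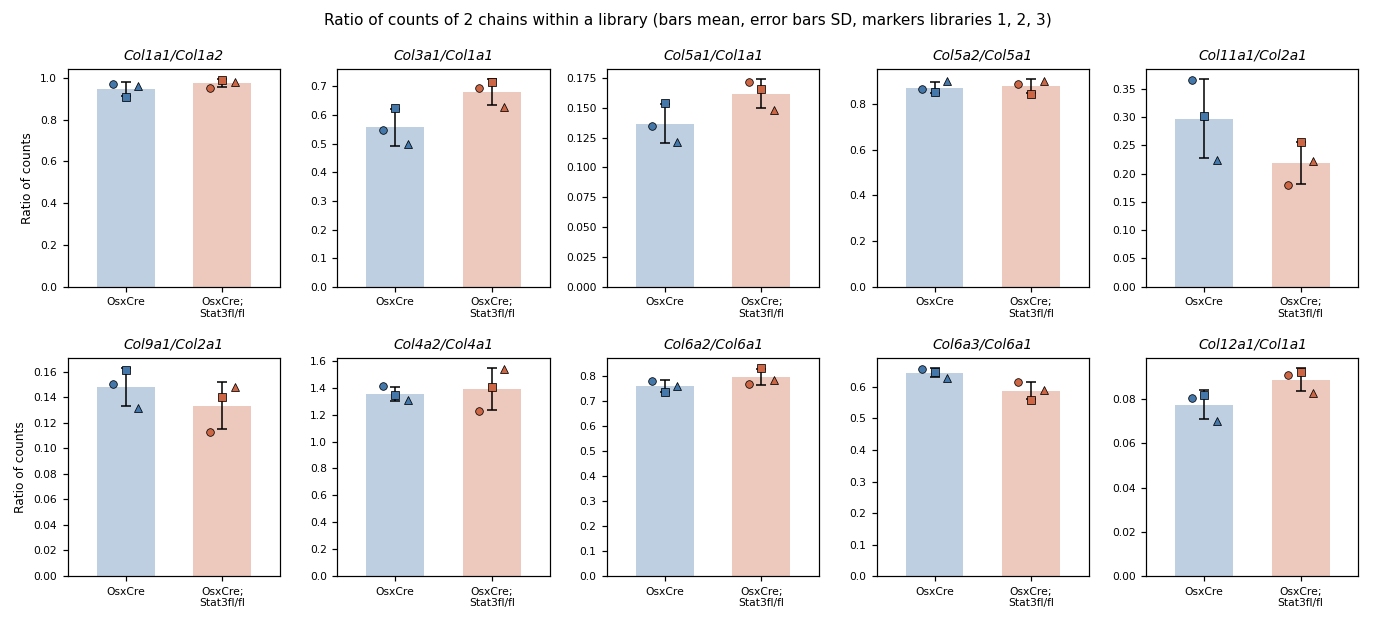
Ratio of the counts of 2 collagen genes within each library for 10 pairs, with bars at the mean of 3 libraries, error bars of 1 SD and circles, squares and triangles for libraries 1, 2 and 3. Col3a1 to Col1a1 and Col12a1 to Col1a1 are higher and Col6a3 to Col6a1 is lower in each library labelled OsxCre;Stat3fl/fl, while the other 7 pairs overlap.

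Genes that make, join, bind and degrade collagen were taken through the same test. Of 21 folding and hydroxylation genes tested, 6 were lower and 1 higher at an unadjusted p under 0.05, where 8.34% of all genes were lower and 8.03% higher, and their median log2 fold change was -0.07. Glt25d1 (Colgalt1), which adds galactose to hydroxylysines of collagen, had 237, 226 and 206 CPM in OsxCre and 167, 164 and 164 CPM in the libraries labelled OsxCre;Stat3fl/fl, a log2 fold change of -0.44 (adjusted p = 0.0453 from edgeR). Serpinh1, the collagen chaperone HSP47 and the most counted gene of the list, had 1602, 1384 and 1362 and 1082, 1076 and 917 CPM without overlap, a log2 fold change of -0.50 (adjusted p = 0.0877 from edgeR). The same shares of all genes stand beside each of the counts that follow. Of 9 propeptide cleavage genes, 1 was lower and none higher, and the most counted, the protease Bmp1, had 586, 493 and 509.5 against 447, 429 and 386 CPM (log2 fold change -0.33, adjusted p = 0.167 from edgeR). Of 5 cross-linking genes, 2 were lower and 2 higher. Lox, lysyl oxidase and the most counted of them, had 433, 384 and 439 against 447, 544 and 592 CPM, the higher group without overlap being the libraries labelled OsxCre;Stat3fl/fl (log2 fold change 0.33, adjusted p = 0.223 from edgeR). Of 10 fibril-associated proteoglycans, 1 was lower and none higher, and the most counted, biglycan (Bgn), had 1932, 1705 and 1609.9 against 1471, 1604 and 1525 CPM (log2 fold change -0.19, adjusted p = 0.424 from edgeR).

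Of 10 collagen receptors, 2 were lower and 1 higher at an unadjusted p under 0.05, and the most counted, the integrin chain Itgb1, had a log2 fold change of 0.12. Of 10 degradation genes, 2 were lower and none higher. The most counted, the osteoclast protease Ctsk, had a log2 fold change of 0.05. Mmp8, a collagenase of neutrophils, had 9.33, 11.4 and 13.5 CPM in OsxCre and 5.404, 5.76 and 5.38 CPM in the libraries labelled OsxCre;Stat3fl/fl, a log2 fold change of -1.05 (adjusted p = 0.0456 from edgeR). The summed erythroid and marrow markers, largely Hba-a1 and Hbb-bt, were lower over the same libraries. Of the neutrophil genes in that list, Ngp had a log2 fold change of -0.86 and Mpo of 0.18, both with overlap. Elane, another of them, was too low for the test. The part of marrow in the value of Mmp8 was not tested. Of 12 partners of type IV collagen in basement membranes, none was lower and 3 were higher, with a median log2 fold change of 0.18. The most counted, nidogen (Nid1), overlapped between the groups at a log2 fold change of 0.31. Lama2, the laminin chain of muscle and nerve basement membranes, had 149, 123 and 133 and 183, 214 and 209 CPM, a log2 fold change of 0.58 (adjusted p = 0.0416 from edgeR). Summed muscle markers were higher, as given above, and how far muscle set the value of Lama2 was not tested. Without 1 library at a time, Glt25d1, Mmp8 and Lama2 had adjusted p-values of 0.0535 to 0.166, 0.0963 to 0.174 and 0.0602 to 0.163 from edgeR. Glt25d1 also missed the threshold with upper quartile scaling (adjusted p = 0.0566 from edgeR), Mmp8 with limma-voom (adjusted p = 0.0627) and Lama2 without scaling, at a log2 fold change of 0.20 (adjusted p = 0.225 from edgeR).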

How the data were processed

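RNA of newborn parietal bone was sequenced with an Illumina TruSeq kit in 6 libraries, 3 OsxCre and 3 labelled OsxCre;Stat3fl/fl, and groups were taken from the labels. The authors deposited 1 table of raw read counts per gene for each library. The submitters' processing notes name HISAT2 and GRCm38, whereas the study's methods describe TopHat, mm9 and Cuffdiff, and the program that counted reads is not given in the sources used here. Reads shared by overlapping or similar genes could have been dropped or assigned to one of them at that step. Totals of 8193651 to 12080044 counts made 3 counts worth 0.248 to 0.366 CPM, and this floor covers counting error only. No 2 libraries of a group agreed within sampling noise (chi-square per degree of freedom 7.514 to 15.58).

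Counts were filtered with filterByExpr (minimum count 10, total 15), scaled by TMM and tested with edgeR 4.0.16 (quasi-likelihood F test, two-sided, Benjamini-Hochberg adjustment over 15600 genes) in R 4.3.3. Cuffdiff was not used because the files hold counts. Standard errors were derived from the F statistic, and 95% intervals from the t distribution of the fit. Alternatives were DESeq2 1.42.0, limma-voom (limma 3.58.1), other scalings, no filter, a replicate block and leaving out each library. The edgeR script was tested on simulated data.

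Values in every library are given for members with an unadjusted p under 0.05, the most counted member of each class, the chains of types I, II, III, V, X and XI and members near the count minimum. Genes outside the members are named where a pathway gene passed an adjusted p under 0.05 or led its list in counts, or where it marks a cell type whose summed level differed without overlap. Other genes and values, among them Acan, Matn1, Ibsp, Sparc, Spp1, Xist and the Y-linked genes, were chosen after their values were seen. The members and the 20 marker and pathway lists were chosen with earlier results of these data known. In these lists, 7 symbols were matched through older names. Transcript lengths came from GENCODE M1 and positions and promoters from RefSeq GRCm38.p6. Col21a1 was not analysed here. Figures were drawn with matplotlib 3.10.9 in Python 3.11.15.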

Additional observations from a re-analysis of the deposited data

How the results depend on the processing

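Of the called genes, Col13a1 was lower in every alternative run. Without OsxCre replicate 2 its adjusted p was 0.033 from edgeR, and without any other single library it lay between 0.0655 and 0.136. The adjusted calls of collagen genes that were lower numbered 0 to 1 when 1 library was left out, where 5 to 36 of all genes were lower. They numbered 2 with no filter on low counts, where 178 of 28016 genes were lower. With DESeq2 they numbered 2 (Col13a1 and Col22a1), where 231 of 15600 genes were lower. Adjusted calls of collagen genes that were higher numbered 0 in every alternative. Unadjusted calls numbered 2 to 7 lower and 1 to 6 higher of the 43 or 44 members tested with 1 library left out. In those fits 5.99% to 7.88% of all genes were lower and 6.05% to 8.31% higher. Higher calls numbered 5 of 44 with no filter, where 5.31% of all genes were higher. With DESeq2 they numbered 7 of 42, where 6.12% of all genes were higher. Without scaling, the adjusted calls were 12 of 42 lower, where 5451 of all 15600 genes were lower. The unadjusted calls were 16 of 42 lower and 0 higher, where 48.8% of all genes were lower and 1.19% higher. In that setting the median log2 fold change was -0.27, against -0.38 for all genes. Among the members followed through each alternative, log2 fold changes then turned to -0.17 for Col4a2, -0.32 for Col12a1, -0.15 for Col6a1, -0.26 for Col18a1, -0.22 for Col3a1, -0.26 for Col5a1, -0.26 for Col5a2, -0.27 for Col5a3, -0.28 for Col11a1, -0.36 for Col11a2 and -0.25 for Col10a1. Libraries labelled OsxCre;Stat3fl/fl were the smaller ones, so unscaled values hold the difference in depth. With library totals Col11a2 was at -0.020. Col23a1, near 0 in edgeR with TMM, was at 0.0018 with DESeq2 size factors, 0.0019 with DESeq2's test and 0.0010 with TMM without muscle and mitochondrial genes. With 1 library left out, 9 of the 42 collagen genes tested took another sign in at least 1 fit, none of them among the 8 with an unadjusted p under 0.05, and 23 did so without scaling. The ranges of the 9 were -0.039 to 0.22 for Col12a1, -0.10 to 0.090 for Col23a1, -0.10 to 0.058 for Col25a1, -0.033 to 0.11 for Col11a2, -0.21 to 0.22 for Col15a1, -0.17 to 0.32 for Col4a5, -0.28 to 0.80 for Col4a6, -0.13 to 0.41 for Col28a1 and -0.11 to 0.93 for Col10a1. The ratio of Col5a2 to Col5a1 ran from -0.011 to 0.039 and that of Col4a2 to Col4a1 from -0.044 to 0.12 (log2). The cause of these changes was not tested.

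Deviations of same-numbered libraries from their group means correlated at -0.101, -0.518 and -0.085, which gave no sign of pairing by replicate number. With 3 libraries in a group these correlations depend on each other, so they cannot decide whether the samples were paired. In a fit with replicate numbers as blocks, adjusted calls among collagen genes numbered 0, where 1 of all 15600 genes was lower and 0 higher. Col13a1 then had an adjusted p of 0.0981 from edgeR, and Glt25d1, Mmp8 and Lama2 had 0.170, 0.175 and 0.183.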
